A study of Mus musculus with 5 samples.

Results

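Cluster 4 is a class of 332 regions in a list of 5670 genomic regions drawn up from ChIP-seq of Stat3 and of the glucocorticoid receptor (GR) in AtT-20 cells. AtT-20 is a mouse pituitary tumour line that stands in for corticotrophs, the ACTH-producing cells of the pituitary. Members of cluster 4 are all entries to which the authors gave the cluster number 4, and they make up 5.86% of the list (exact 95% binomial interval 5.26% to 6.50%). In ChIP-seq, DNA bound by a chosen protein is recovered with an antibody and sequenced. Cells were treated for 20 min with LIF, with dexamethasone (Dex) or with Dex+LIF, and there were 5 libraries in 5 groups: Stat3 after LIF, Stat3 after Dex+LIF, GR after Dex+LIF, GR after Dex, and an IgG control made from material of the different treatments. Each library was made from 5 pooled ChIPs, so each group is 1 library without replicates. All groups share the same cell line and culture medium with serum, and both Stat3 groups used antibodies against Stat3 and phosphorylated Stat3 together.

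LIF is a cytokine of the interleukin 6 family. It activates receptor-associated Janus kinases, which phosphorylate Stat3, and phosphorylated Stat3 dimers enter the nucleus and bind palindromic sites in DNA. Dex is a synthetic glucocorticoid that binds GR, and the ligand-bound receptor binds glucocorticoid response elements directly or reaches DNA through other bound proteins. In corticotrophs glucocorticoids restrain, and LIF raises, transcription of the ACTH precursor gene. The series concerns how the recruitment of the 2 factors to DNA relates to the outcome of transcription.

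The list gives each region a chromosome, a single mm9 position, a running number and 1 of 13 cluster numbers. It holds no signal per library, so which factor and which treatment cluster 4 stands for is not stated in the sources at hand. The sequencing depth, the signal in the IgG control and the level of any corticotroph marker are also unknown here, and no value could be compared between treatments. Cluster 4 is therefore described by where its regions lie and by which other clusters surround them. Genes, exons and DNA motifs at these positions were not analysed here, because no genome or annotation of mm9 was used. Intervals on shares cover counting error only and treat regions as independent, which close neighbours are not. No test was made of any difference between clusters.

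Cluster 4 was spread over all 20 chromosomes of the list. Chromosome 2 carried the most, with 37 regions, and chromosome 11 carried 30. Chromosomes 3, 4 and 1 followed with 25, 24 and 23 regions, and these 5 chromosomes together held 139 regions, 41.9% of the cluster. Chromosomes 14 and X carried 4 each. Per length of chromosome between its first and last listed region, chromosome 11 was the fullest, with 0.253 cluster 4 regions per Mb, followed by chromosome 16 with 0.233 and chromosome 2 with 0.209. The X chromosome had 0.0251 per Mb and chromosome 14 had 0.0353, against 0.131 over all chromosomes.

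**Figure D1:**
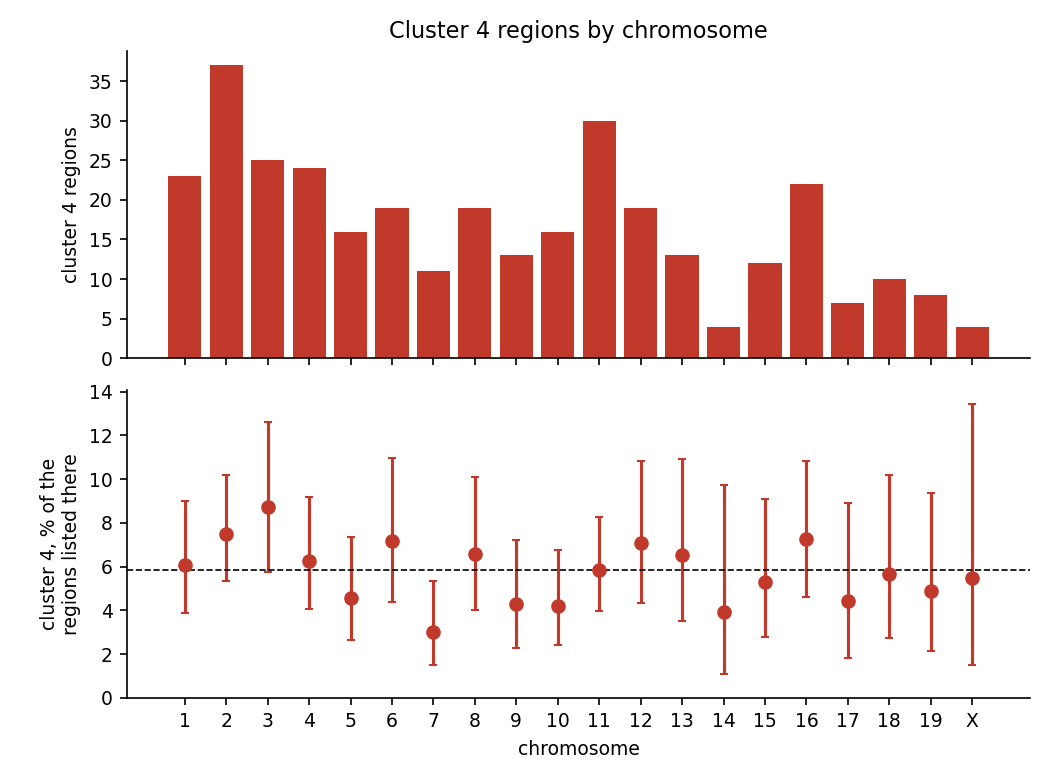
Top, number of cluster 4 regions on each chromosome. Bottom, cluster 4 as a percentage of the regions listed on that chromosome, with exact 95% binomial intervals, and the share in the whole list as a dashed line; 19 of 20 intervals hold the share of 5.86%, and that of chromosome 7 lies below it.

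As a share of the regions listed on each chromosome, cluster 4 ran from 3.02% to 8.74%, with a median of 5.77%. Chromosome 3 had the highest share, 25 of 286 regions (interval 5.74% to 12.6%). Chromosome 7 had the lowest, 11 of 364 regions (interval 1.52% to 5.34%). The interval of chromosome 7 was the only 1 of 20 that did not hold the share in the whole list. On the same chromosome cluster 5 made up 8.24% and cluster 6 made up 11.3% of the listed regions, against 6.65% and 11.1% in the whole list. Chromosome 2, with the largest count, had a share of 7.51% (interval 5.34% to 10.2%), which holds the share in the whole list.

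Cluster 4 regions were mostly far from each other. The median distance between successive cluster 4 regions on a chromosome was 3.57 Mb over 312 intervals. The distance was over 20 Mb in 27 of them, and the longest was 70.2 Mb on the X chromosome. It was under 100 kb in 28 and at most 10 kb in 9. Most members thus had no other region of their own cluster within 100 kb. The same spacing was not computed for other clusters, so it is not a trait set against them. A second cluster 4 region within 10 or 50 kb was nevertheless somewhat more common around cluster 4 than in the whole list, by narrow margins given below.

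The fullest group of cluster 4 regions lay near the end of chromosome 2, where 7 of them fell within 597 kb (chr2:167198855-167795525). Their positions were 167198855, 167590815, 167651175, 167653985, 167660265, 167784620 and 167795525. The same stretch held 25 listed regions in all, among them 7 of cluster 3, 6 of cluster 6 and 1 of cluster 5. This group was found by taking the windows of up to 1 Mb with the most cluster 4 regions, a search chosen after the positions had been seen. The next windows held 4 cluster 4 regions each. On chromosome 11 these were at 109130225, 109484175, 109484370 and 109599865, among 13 listed regions. On chromosome 16 they were at 10643130, 10750015, 10925885 and 11008405, among 10 listed regions. The other 7 of the 10 windows taken held 3 each.

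Set against regions of any cluster, those of cluster 4 stood closer to other regions than the rest of the list did, with more of them at 10 to 50 kb and fewer beyond 100 kb. The distance from a cluster 4 region to the nearest other listed region ran from 145 bp to 3505 kb, with a median of 21.4 kb and quartiles of 4.03 and 75.7 kb. In the other clusters together the median was 41.3 kb, with quartiles of 6.71 and 146 kb. The median was 12.8 kb in cluster 5, 19.1 kb in cluster 6, 49.96 kb in cluster 7 and 50.6 kb in cluster 3. Cluster 4 thus stood between cluster 6 and cluster 7 in this order.

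**Figure D2:**
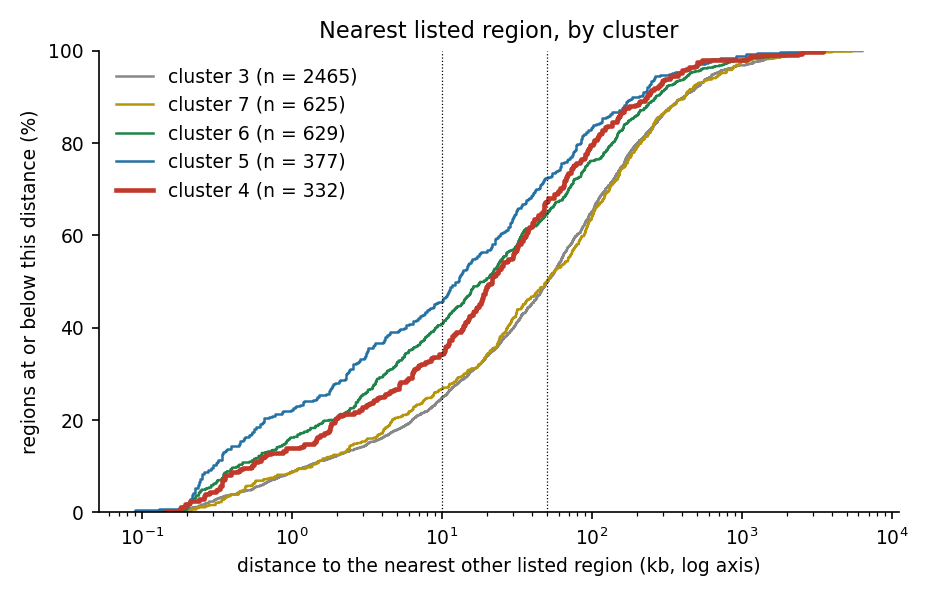
Percentage of regions whose nearest other listed region of any cluster lies at or below the distance on the horizontal log axis, for clusters 3 to 7. Dotted lines mark 10 kb, where cluster 4 is at 34.3%, and 50 kb, where it is at 67.2% and lies between cluster 6 (64.5%) and cluster 5 (72.4%).

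Within 10 kb, 114 of 332 cluster 4 regions had another listed region (34.3%, interval 29.2% to 39.7%), and in the whole list the share was 29.5%, inside that interval. Within 50 kb, 223 of 332 had another region (67.2%, interval 61.8% to 72.2%), and in the whole list the share was 54.4%, below that interval. The nearest region was over 10 and up to 50 kb away for 32.8% of cluster 4 (interval 27.8% to 38.2%) and for 24.4% of all other regions (interval 23.3% to 25.6%). Over 100 kb away it was 20.5% of cluster 4 (interval 16.3% to 25.2%) against 32.1% of all other regions (interval 30.8% to 33.3%), with 16.7% in cluster 5 and 23.8% in cluster 6. In the band of 10 to 50 kb cluster 5 had 26.8% (interval 22.4% to 31.6%) and cluster 6 had 23.7% (interval 20.4% to 27.2%). Up to 1 kb cluster 4 was the lowest of the 3, with 13.9% (interval 10.3% to 18.0%), against 22.3% for cluster 5 and 16.2% for cluster 6.

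This pattern was seen on most chromosomes. The share of cluster 4 with another region within 50 kb was above that of the other clusters on 18 of 20 chromosomes and below it on chromosomes 4 and 10. On chromosome 2 it was 86.5% (32 of 37) against 58.3% for the other clusters. On chromosome 12 it was 84.2% against 51.0%, and on chromosome 13 it was 69.2% against 36.0%. On chromosome 11, the chromosome richest in listed regions, it was 73.3% against 69.3%. Within 10 kb cluster 4 was above the other clusters on 13 chromosomes and below them on 7. Without chromosome 2 the share within 50 kb was 64.7%. These counts weigh all chromosomes alike, though some held few members. Within 50 kb it was 2 of 4 on chromosomes 14 and X and 4 of 7 on chromosome 17. The distance of 50 kb was made a result after the positions had been seen.

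Regions of cluster 3, the largest class of the list, lay within 50 kb of similar shares of clusters 4 and 5. Of cluster 4 regions, 137 of 332 had a cluster 3 region within 50 kb (41.3%, interval 35.9% to 46.8%), against 30.4% in the whole list. The share was 40.3% for cluster 5 (interval 35.3% to 45.5%), 28.5% for cluster 6 (interval 24.96% to 32.2%) and 30.7% for cluster 3 itself (interval 28.9% to 32.5%). Cluster 4 was above the other clusters in this on 17 of 20 chromosomes. Within 10 kb the share of cluster 4 with a cluster 3 region was 13.3% (44 of 332, interval 9.80% to 17.4%), against 12.6% in the whole list. The interval of cluster 4 thus lay above the whole list at 50 kb and held it at 10 kb. Cluster 4 also had more neighbours of any cluster within 50 kb. Of all listed regions within 50 kb of a cluster 4 region, counted for each member, 39.7% were of cluster 3 (interval 35.5% to 44.0%). Around all other clusters it was 38.9%, inside that interval.

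**Figure D3:**
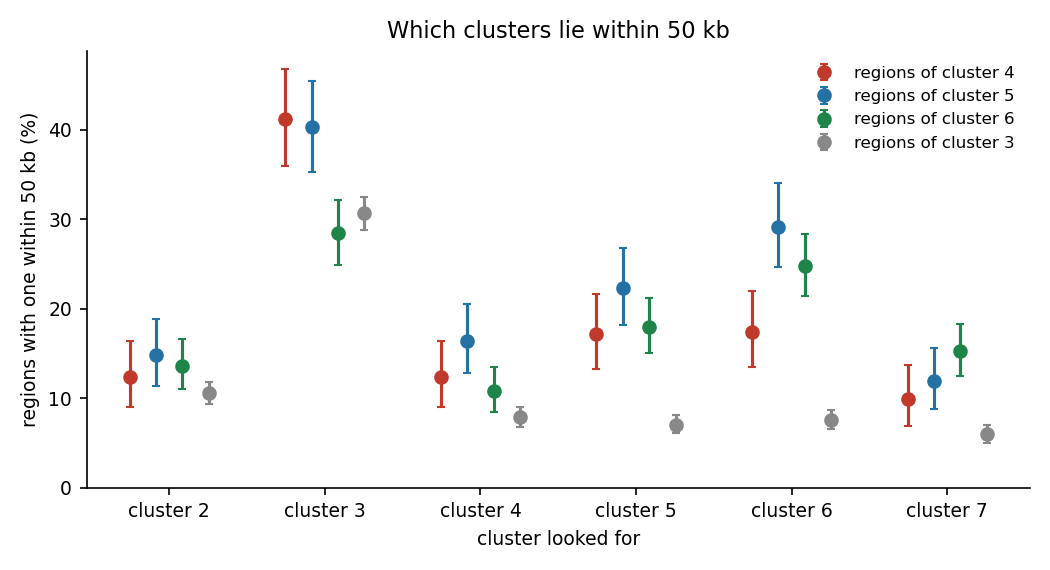
Percentage of the regions of clusters 4, 5, 6 and 3 that have a region of the cluster on the horizontal axis within 50 kb, with exact 95% binomial intervals. Cluster 4 (41.3%) and cluster 5 (40.3%) lie together above cluster 6 (28.5%) for cluster 3, while for cluster 6 as the cluster looked for, cluster 4 (17.5%) lies below cluster 5 (29.2%).

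Clusters 5 and 6 lay near similar shares of cluster 4 regions at both distances, with intervals that overlap. A cluster 5 region lay within 10 kb of 28 of 332 cluster 4 regions (8.43%, interval 5.68% to 12.0%), against 4.29% in the whole list. Within 50 kb it was 57 regions (17.2%, interval 13.3% to 21.7%), against 10.2%. A cluster 6 region lay within 10 kb of 24 (7.23%, interval 4.69% to 10.6%), against 6.01%, and within 50 kb of 58 (17.5%, interval 13.5% to 22.0%), against 13.3%. Another cluster 4 region lay within 10 kb of 17 (5.12%, interval 3.01% to 8.07%), against 2.96%, and within 50 kb of 41 (12.3%, interval 9.01% to 16.4%), against 8.62%. Cluster 7 was close to few members, with 7 within 10 kb (2.11%, interval 0.852% to 4.30%), against 3.84%. Cluster 2 was near 16 of them at 10 kb (4.82%, interval 2.78% to 7.71%), against 4.25%. Within 50 kb the share was 9.94% for cluster 7 (interval 6.94% to 13.7%), against 9.44%, and 12.3% for cluster 2 (interval 9.01% to 16.4%), against 11.1%. The share in the whole list was below the interval for clusters 4 and 5 at both distances and for cluster 6 at 50 kb only, and it was inside the interval for clusters 2 and 7 at both. For cluster 4 at both distances and for cluster 6 at 50 kb the margin was narrow. Of all listed regions within 10 kb, counted for each member, cluster 4 made up 11.24% around cluster 4. Around cluster 5 it made up 11.15% (interval 7.70% to 15.5%), and around cluster 6 it made up 7.16%. A high share of cluster 4 was thus not particular to cluster 4. Of all listed regions within 50 kb, counted for each member, cluster 6 made up 14.6% around cluster 4 and 14.4% around all other clusters. Cluster 5 made up 13.1% and 10.3%, and cluster 4 made up 8.24% and 7.76%.

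The clusters of all regions around cluster 4 were also counted, first within 10 kb and then in bands of distance. Within 10 kb the 332 regions had 178 partners, counting each listed region close to each member. Of these partners 59 belonged to cluster 3 (33.1%), 31 to cluster 5 (17.4%), 28 to cluster 6 (15.7%), 20 to cluster 4 (11.2%) and 7 to cluster 7 (3.93%). The 20 of cluster 4 are 10 pairs counted from both sides. With each cluster counted once per run, cluster 4 made up 5.56% (8 of 144). That counts clusters present in runs and not partners, so it cannot be set directly against 11.2% or the share of the list. Regions that have any neighbour are not a fair cross-section of the list, since 10.3% of them belong to cluster 5 and 15.4% to cluster 6. Among the partners of all other clusters, 10.7% were of cluster 5 (interval 9.49% to 12.1%), against an interval of 12.2% to 23.8% around cluster 4. For cluster 6 the share was 15.8% around the other clusters, inside the interval of 10.7% to 21.9% around cluster 4. Set against the partners of other clusters, the interval of cluster 4 thus lay higher for cluster 5 and held their share for cluster 6. This was not particular to cluster 4, since cluster 5 made up 15.6% of the partners of cluster 6 (interval 12.1% to 19.6%) and 20.9% of those of cluster 5 itself (interval 16.2% to 26.1%). Around cluster 3 it made up 7.24% and around cluster 7 it made up 5.08%.

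**Figure D4:**
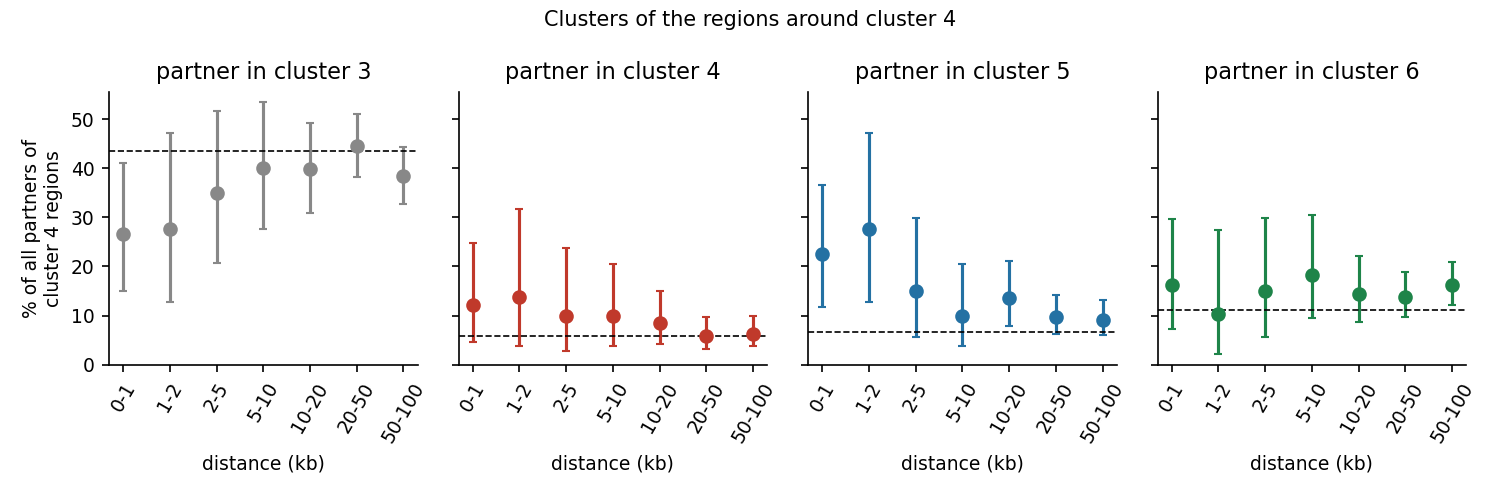
Percentage of the partners of cluster 4 regions that belong to clusters 3, 4, 5 and 6, in bands of distance, with exact 95% binomial intervals; dashed lines give each cluster's share of the list. Cluster 5 falls from 22.4% at up to 1 kb to 9.15% at 50 to 100 kb, and cluster 3 is lowest at up to 1 kb (26.5%).

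The share of cluster 5 around cluster 4 was highest at short range. It was 11 of 49 partners up to 1 kb away (22.4%, interval 11.8% to 36.6%) and 8 of 29 at 1 to 2 kb (27.6%, interval 12.7% to 47.2%). Around the other clusters it was 13.96% and 7.47% in these bands (intervals 11.3% to 16.97% and 4.69% to 11.2%). Clusters 5 and 6 had higher shares of cluster 5 than cluster 4 among partners up to 1 kb away, 29.2% (28 of 96) and 25.5% (27 of 106), and lower ones at 1 to 2 kb, 6.90% (2 of 29) and 10.5% (4 of 38). At 20 to 50 kb it was 23 of 238 partners (9.66%, interval 6.23% to 14.1%), against 9.33% around the other clusters. Cluster 3 made up 13 of 49 partners up to 1 kb away (26.5%, interval 14.9% to 41.1%), 106 of 238 at 20 to 50 kb (44.5%, interval 38.1% to 51.1%) and 109 of 284 at 50 to 100 kb (38.4%, interval 32.7% to 44.3%). Its share was also lower up to 1 kb than at 50 to 100 kb around cluster 5 (15.6% and 42.7%), cluster 6 (16.0% and 37.8%) and cluster 7 (15.5% and 44.3%). Cluster 6 made up 16.3% of partners up to 1 kb away, 10.3% at 1 to 2 kb and 16.2% at 50 to 100 kb. The short bands hold few partners, and their intervals overlap those of the longer bands.

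By the single nearest region, at any distance, 125 cluster 4 regions were beside cluster 3 (37.7%), 39 beside cluster 6 (11.7%), 37 beside cluster 5 (11.1%), 36 beside cluster 2 (10.8%), 31 beside cluster 7 (9.34%) and 29 beside cluster 4 (8.73%). For all other clusters together the shares were 41.9% beside cluster 3, 11.7% beside cluster 6 and 7.25% beside cluster 5. Beside clusters 2, 7 and 4 they were 11.5%, 11.1% and 5.96%. Of these, only the share beside cluster 5 lay outside the interval of cluster 4 (7.97% to 15.03%). This was not particular to cluster 4, since 13.8% of cluster 5 and 12.1% of cluster 6 were beside cluster 5. For clusters 3 and 7 it was 6.53% and 4.80%. The distances differed more than the counts. The median was 4.54 kb where the nearest region was of cluster 5, 5.14 kb for cluster 4, 15.2 kb for cluster 6, 29.3 kb for cluster 3 and 48.2 kb for cluster 7. For all other clusters together it was 16.005 kb for cluster 5, 23.28 kb for cluster 6 and 26.46 kb for cluster 4. For clusters 3 and 7 it was 51.34 and 51.4 kb. Shorter medians for clusters 4, 5 and 6 than for clusters 3 and 7 were thus not particular to cluster 4. No cluster 4 region had a nearest region of clusters 8, 10 or 12. These are among the smallest clusters, with 47, 6 and 59 regions.

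The closest cluster 4 region to any other lay on chromosome 7 at 80331490, 145 bp from a cluster 6 region at 80331635. The next were 180 bp from a cluster 5 region, at 5399295 on chromosome 11 and at 163260155 on chromosome 2. A region at 122456735 on chromosome 10 lay 185 bp from cluster 3. The closest pair within cluster 4 was 109484175 and 109484370 on chromosome 11, 195 bp apart. Whether entries this close are separate binding sites was not tested.

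Pairs of cluster 4 with cluster 5 numbered 31 within 10 kb, with a median distance of 1.77 kb, and 11 of them were within 1 kb. After the 2 pairs at 180 bp, the closest were 3954595 with 3954835 on chromosome 12 (240 bp), 32289925 with 32289665 on chromosome 19 (260 bp) and 174089335 with 174089050 on chromosome 2 (285 bp). Pairs with cluster 6 numbered 28, with a median distance of 2.46 kb, and 8 were within 1 kb. After that on chromosome 7, the closest were 103964290 with 103964085 on chromosome 12 (205 bp), 78816300 with 78816060 on chromosome 11 (240 bp), 30121325 with 30121645 on chromosome 2 (320 bp) and 9390205 with 9389855 on chromosome 5 (350 bp). Pairs with cluster 3 numbered 59, with a longer median distance of 4.39 kb.

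At the other end, 7 cluster 4 regions had no listed region within 1 Mb (2.11%, interval 0.852% to 4.30%), against 2.79% of the other clusters. The most isolated lay on the X chromosome at 30147560, 3505 kb from the nearest region. It was followed by 21954240 on chromosome 6 (2523 kb), 56385035 on the X chromosome (2379 kb), 5344345 on chromosome 12 (1390 kb) and 122784160 on chromosome 14 (1133 kb). Their nearest regions belonged to clusters 2, 2, 7, 5 and 3. The median number of other regions within 1 Mb was 9 for cluster 4 and 9 for the other clusters.

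Linking regions at most 10 kb apart placed the 332 members in 323 runs, of which 218 held a single region. The other 105 runs held 274 regions, 114 of them of cluster 4. Most were small, with 71 runs of 2 regions, 19 of 3, 6 of 4, 5 of 5, 2 of 6 and 2 of 7. Their median length was 3.21 kb, and the longest spanned 24.8 kb. A cluster 3 region was in 45 of the 105 runs (42.9%), a cluster 5 region in 27 (25.7%), a cluster 6 region in 23 (21.9%), a cluster 2 region in 17 (16.2%) and a cluster 7 region in 7 (6.67%). The whole list had 710 runs of 2 or more regions. Cluster 3 was in 412 of them, cluster 5 in 144, cluster 6 in 208 and cluster 7 in 137. Against all runs, those with cluster 4 held clusters 3 and 7 less often, with intervals (33.2% to 52.9% and 2.72% to 13.3%) below those shares. For clusters 5 and 6 the intervals (17.7% to 35.2% and 14.4% to 31.0%) held the share in all runs. In runs with cluster 4, 1 place is taken by cluster 4 by definition. Clusters 5 and 6 were both present in only 6 runs (5.71%), and 44 runs had at least 1 of them. Runs with cluster 3 but neither cluster 5 nor cluster 6 numbered 33 (31.4%). Of the 71 runs of 2 regions, 24 paired cluster 4 with cluster 3, 13 with cluster 5, 9 with cluster 6, 8 with cluster 2 and 4 with cluster 4 itself.

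Runs around cluster 4 rarely held a second member. Only 8 of 105 runs had 2 or more cluster 4 regions (7.62%, interval 3.35% to 14.5%). Among runs with cluster 5, 26 of 144 had 2 or more regions of cluster 5 (18.1%, interval 12.1% to 25.3%). Among runs with cluster 6, 41 of 208 had 2 or more of cluster 6 (19.7%, interval 14.5% to 25.8%). For cluster 7 it was 29 of 137 (21.2%, interval 14.7% to 29.0%), and for cluster 3 it was 162 of 412 (39.3%, interval 34.6% to 44.2%). Cluster 6 was in 47 of the 144 runs with cluster 5 (32.6%, interval 25.1% to 40.9%), against 21.9% of the runs with cluster 4 (interval 14.4% to 31.0%). It was in 15.8% of the runs with cluster 3 and 26.3% of those with cluster 7. Cluster 4, with 332 regions, is smaller than cluster 5 with 377, cluster 7 with 625, cluster 6 with 629 and cluster 3 with 2465. These shares were not corrected for size.

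**Figure D5:**
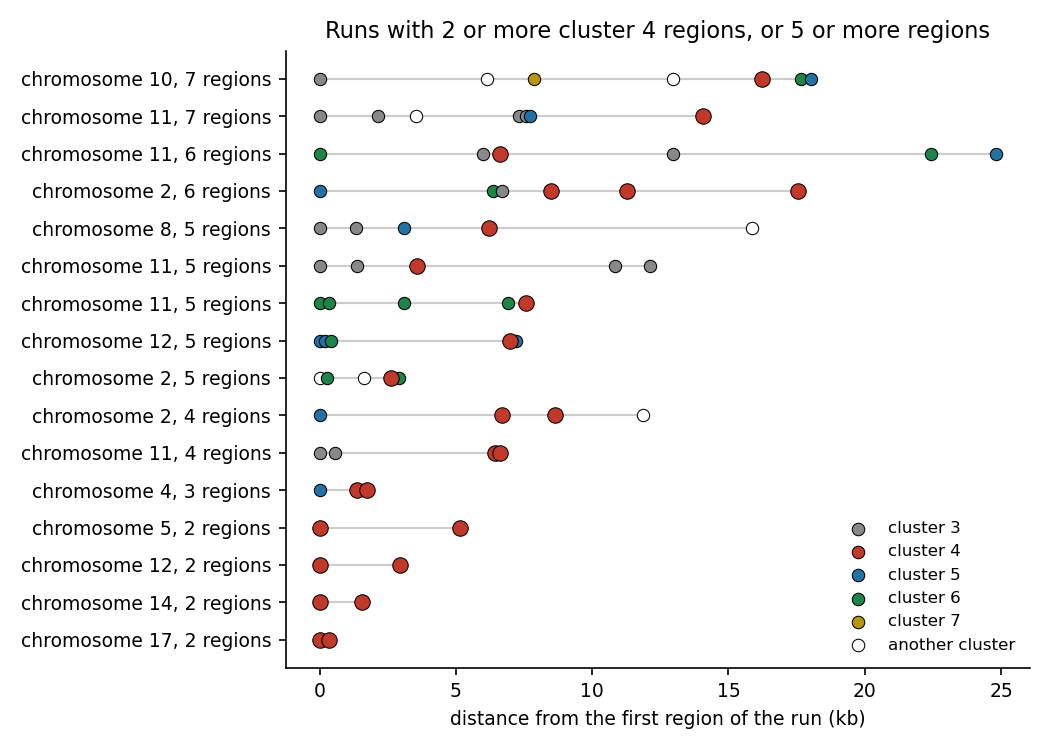
Each row is a run of regions linked at 10 kb, with its chromosome and number of regions, and points give the distance of each region from the first in kb, coloured by cluster. The run on chromosome 2 with 6 regions holds 3 cluster 4 regions, and the 4 runs at the bottom hold only cluster 4.

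The 8 runs with more than 1 member held 17 cluster 4 regions, and 4 of these runs held cluster 4 alone. These were pairs at 13853255 and 13853595 on chromosome 17 (340 bp apart), 77131560 and 77133105 on chromosome 14 (1545 bp), 40563835 and 40566770 on chromosome 12 (2935 bp) and 117477110 and 117482255 on chromosome 5 (5145 bp). On chromosome 4 a pair at 150554605 and 150554965 followed a cluster 5 region at the start of the run, 150553215. On chromosome 2 the pair 52845145 and 52847095 lay between a cluster 5 region and a cluster 2 region. On chromosome 11 the pair 195 bp apart followed 2 cluster 3 regions. The only run with 3 members was chr2:167642700-167660265, in which a cluster 5, a cluster 6 and a cluster 3 region were followed by the 3 of cluster 4, within the fullest group of the cluster.

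Of the 9 runs with 5 or more regions, 8 held a single cluster 4 region, the exception being the run of 6 on chromosome 2 above. These 8 were chosen for their size after the runs had been seen. A run of 7 regions on chromosome 10 (chr10:59366145-59384155) held, in order of position, clusters 3, 2, 7, 12, 4, 6 and 5. The other run of 7, chr11:98986275-99000330, held clusters 3, 3, 2, 3, 3, 5 and 4. The longest run, chr11:86387485-86412295, held clusters 6, 3, 4, 3, 6 and 5. In chr8:129347365-129363225 the order was 3, 3, 5, 4 and 8. In chr11:103662435-103670015, 4 cluster 6 regions were followed by a cluster 4 region. In chr12:3947625-3954835, a cluster 4 region lay among 3 of cluster 5 and 1 of cluster 6. In chr2:30118715-30121645, 5 regions within 2.93 kb belonged to clusters 12, 6, 2, 4 and 6. In chr11:117739795-117751905 a cluster 4 region, at 117743360, had 2 cluster 3 regions on each side.

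The most crowded windows of the list held a few cluster 4 regions. Among the 10 fullest windows of 100 kb, 6 held cluster 4, and 9 of their 112 regions belonged to it (8.04%, interval 3.74% to 14.7%), against 5.86% of the list. Of these 9, 4 lay in a single window on chromosome 2, at 167590815, 167651175, 167653985 and 167660265. The other 5 windows had 1 each, at 117743360 on chromosome 11, 59382360 on chromosome 10, 129353595 on chromosome 8, 103838815 on chromosome 12 and 37298075 on chromosome 6. The fullest window, with 23 regions on chromosome 11, had 1 cluster 4 region.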

How the data were processed

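ChIP-seq was made from AtT-20 cells in 5 groups of 1 library each. The submitters' processing notes name Bowtie, MACS 1.3.7.1 and the build mm9. How peaks were joined into 1 list and sorted into clusters is not stated in the sources at hand. The deposited list holds positions in bp and cluster numbers, not measured values, per the file headers and the values themselves; positions are multiples of 5 bp, and whether they count from 0 or 1 is not given. The running numbers end at 5874; 204 (3.47%) are without an entry and were not analysed here, and 16 cluster 4 regions (4.82%) stand next to such a number.

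Distances were computed between listed positions with Python 3.11.15, numpy 2.4.6 and pandas 2.3.3. Neighbours were regions at most 10 kb apart, and intervals were exact (Clopper-Pearson) from scipy 1.17.1. The distance code was checked on simulated lists. Named regions were those in runs with 2 or more cluster 4 regions, in the 10 fullest windows of 100 kb, the 5 least and 5 most isolated, and the 5 closest pairs with clusters 5 and 6. Members, lists and distances were chosen with earlier results of these data known, the distance of 50 kb, planned as an alternative to 10 kb, was made a result of its own after the positions had been seen, and windows of 1 Mb were added then. Planned analyses of motifs, base composition and genes were not run, since the gene and promoter tables at hand were of GRCm38 and mm9 positions were not converted.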

Additional observations from a re-analysis of the deposited data

How the results depend on the processing

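Of 51 alternative values for 14 results, 43 stayed within the exact 95% interval of the value reported and 8 did not. The share of cluster 4 with a neighbour depends on the distance by construction and was 13.9% within 1 kb, 67.2% within 50 kb and 79.5% within 100 kb. Among partners, cluster 5 made up 11.7% within 100 kb. Cluster 4 itself made up 5.56% (8 of 144), after 11.2%, when each cluster was counted once per run. That alternative counts clusters present in runs and not partners. With the nearest region taken within 10 kb only, it was of cluster 3 for 29.8%, of cluster 4 for 14.04% and of cluster 5 for 17.5%. Leaving out chromosome 2 or the densest stretch (chr11:117597375-117895855) kept within their intervals the shares with a neighbour at 10 and 50 kb, the share with a cluster 3 region within 50 kb and the 4 partner shares, and leaving out regions next to a missing number did so for the share with a neighbour at 10 kb. These were not run for the nearest-region counts. Alternatives without chromosome 2 were chosen after seeing the data, except for the share of the list, as were those on missing numbers and at 50 kb without the densest stretch. Alternatives on motifs, base composition, promoters and genes were not run. No paired analysis was possible because the result comes from no test and each group is 1 library. Depth is unknown, and it sets how many regions a peak caller can list.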

Other observations

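Positions in the list end in 0 or in 5. In cluster 4, 67 of 332 end in 0 (20.2%, exact 95% interval 16.0% to 24.9%), against 1375 of 5338 in the other clusters (25.8%, interval 24.6% to 27.0%). Over the 13 clusters the share ran from 16.7% in cluster 10, which has 6 regions, to 37.9% in cluster 9. How the positions were derived was not stated. The cluster 4 entries are not listed in order of position. The 10 pairs of cluster 4 regions within 10 kb of each other stood between 9 and 196 places apart in the list, and the pair 195 bp apart was the one 9 places apart.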
